A study of Mus musculus with 24 samples.

Results

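The genes described here are 9 chemokine ligands and 1 chemokine receptor, Cxcl1, Cxcl2, Cxcl9, Cxcl10, Cxcl12, Cxcl13, Cxcl14, Cxcl16, Cx3cl1 and Cxcr4, taken by symbol from a table of 36333 genes. All 10 were found, and 8 of them reached the mean of 0.5 TPM over all libraries that was required for testing, as did 17267 genes in all. Cxcl2 and Cxcl9 stayed under it, with means of 0.463 and 0.386 TPM. Cxcl13, with a mean of 0.554 TPM, reached it only through the Anakinra group, since the other 19 mice averaged 0.344 TPM, so its calls are kept apart from those of the other members. TPM is a transcript level corrected for length, so that levels can be set side by side between genes, and it sums to the same total in each library.

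RNA of brain tissue holding the lesion and its surroundings was sequenced for 24 male C57BL6N mice aged 12 to 16 weeks, with 1 library per mouse, 5 days after traumatic brain injury (TBI) or sham surgery. TBI was a controlled cortical impact (CCI) through a craniotomy. The 20 mice with TBI received vehicle (n = 5), PLX3397 (n = 5), Anakinra (n = 5) or PLX3397+Anakinra (n = 5), and the sham group (n = 4) had a skin incision without craniotomy or impact. PLX3397, an inhibitor of the microglial growth factor receptor CSF1R, was mixed into chow at 290 mg/kg from 90 min after CCI. Anakinra, an antagonist of the interleukin-1 receptor IL1R1, was injected subcutaneously at 100 mg/kg 5 min, 24 h, 48 h and 72 h after CCI. Per the methods, all groups without a drug received vehicle chow and saline injections, the sham mice included. The labels call the tissue cortex, whereas the methods add striatum, dorsal hippocampus and thalamus, and the methods name the strain as C57BL/6JRj and a narrower range of ages. Neuronal markers were abundant in every library, with summed levels of 4188 to 7216 TPM over 8 genes. The animal numbers of all vehicle mice, and of no other mice, carry the letter B. If the letter marks a batch, batch and vehicle treatment cannot be told apart. Libraries listed 22160 to 23249 genes above 0, the lowest correlation between libraries of a group was 0.9876, and no 2 libraries were identical.

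Chemokines are small secreted proteins that direct the migration of cells through G protein-coupled receptors. CXC ligands carry 1 residue between their first cysteines, and the single CX3C ligand, Cx3cl1, is made as a membrane protein that proteases can shed. In injured brain, interferons induce Cxcl9 and Cxcl10, which attract T cells, myeloid and glial cells release Cxcl1 and Cxcl2 for neutrophils, neurons hold microglia under the influence of Cx3cl1, and vascular and stromal cells make Cxcl12 for cells with the receptor Cxcr4. Cxcl13 is the ligand that attracts B cells, Cxcl16 is a membrane-bound ligand of macrophages and other myeloid cells, and Cxcl14 is made by some interneurons.

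Both interferon-induced genes and the neutrophil-attracting pair lie on mouse chromosome 5, as does Cxcl13 (RefSeq, GRCm38.p6). Cxcl9 (chr5:92321331-92328079) and Cxcl10 (chr5:92346638-92348889) were neighbours with 18558 bases between them, and Cxcl1 (chr5:90891245-90893121) and Cxcl2 (chr5:90903899-90905938) were separated by 10777 bases. All are protein-coding genes. The 250 bases upstream of the start of these 4 genes are shown because they carry the letters of the elements through which the interferon and NF-κB pathways are known to act. They were read 5′ to 3′ in the direction of transcription at chr5:92328080-92328329 and chr5:92348890-92349139 on the minus strand and at chr5:90890995-90891244 and chr5:90903649-90903898 on the plus strand. Capitals mark matches to an interferon-stimulated response element (ISRE) core, GAAANNGAA, or to a κB-like element, GGGNNNTTC, on either strand.
Cxcl9: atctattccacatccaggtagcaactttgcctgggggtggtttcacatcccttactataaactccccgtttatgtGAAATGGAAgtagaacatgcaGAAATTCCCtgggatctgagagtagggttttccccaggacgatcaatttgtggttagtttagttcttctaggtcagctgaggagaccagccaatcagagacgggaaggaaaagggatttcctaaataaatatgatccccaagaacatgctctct
Cxcl10: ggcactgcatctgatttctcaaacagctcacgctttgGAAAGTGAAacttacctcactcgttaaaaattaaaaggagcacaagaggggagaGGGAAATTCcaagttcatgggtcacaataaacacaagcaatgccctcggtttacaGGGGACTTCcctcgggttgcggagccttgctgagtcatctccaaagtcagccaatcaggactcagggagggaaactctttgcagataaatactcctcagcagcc
Cxcl1: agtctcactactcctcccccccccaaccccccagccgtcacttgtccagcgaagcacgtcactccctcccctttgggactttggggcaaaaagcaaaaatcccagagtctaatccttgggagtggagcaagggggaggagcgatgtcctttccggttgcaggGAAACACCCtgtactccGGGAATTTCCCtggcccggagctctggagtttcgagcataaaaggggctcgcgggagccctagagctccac
Cxcl2: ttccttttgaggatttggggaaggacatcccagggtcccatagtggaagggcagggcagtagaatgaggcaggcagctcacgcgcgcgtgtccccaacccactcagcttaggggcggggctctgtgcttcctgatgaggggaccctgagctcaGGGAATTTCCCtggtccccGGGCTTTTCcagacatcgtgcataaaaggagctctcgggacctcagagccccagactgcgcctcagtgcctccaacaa
The promoters of Cxcl9 and Cxcl10 held an ISRE core, at -175 to -167 and at -213 to -205 from the gene start, together with 1 and 2 κB-like matches. The promoters of Cxcl1 and Cxcl2 held 3 κB-like matches each, of which 2 overlapped, and no ISRE core. Among 32851 mouse promoters of this length, 7.13% held the ISRE letters, and 11.8% held the κB-like letters. Of the other members with a promoter sequence, Cxcr4 held 1 κB-like match, and Cxcl14 held an ISRE core beside the letters of a gamma-activated site, TTCNNNGAA, which 7.02% of the promoters contained. Cxcl12, Cxcl13 and Cx3cl1 held none of these letters, and Cxcl16 had no entry in the table of promoters. A match is a description of the sequence, and factor binding was not measured.

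Against sham, 4 of the 8 tested members were higher in vehicle-treated mice after TBI (Cxcl10, Cxcl16, Cxcr4 and Cxcl1) and 1 was lower (Cx3cl1). Injury moved much of the transcriptome at this threshold (Benjamini-Hochberg adjusted p from limma under 0.05), with 26.6% of all tested genes higher and 27.7% lower. Against vehicle, PLX3397 lowered Cxcl16 and Cxcr4 and raised Cxcl12, where 6.66% of all genes fell and 3.23% rose. Anakinra changed no member at this threshold, at which 0.0695% of all genes were higher and 0.0463% lower. At an unadjusted p of 0.05 in limma, Cxcl10 and Cxcr4 passed, as did 12.4% of all genes. Cxcl13, tested only because of the Anakinra mice, is left out of this comparison. PLX3397+Anakinra lowered Cxcl10, Cxcl16 and Cxcr4 and raised Cxcl12 and Cx3cl1 against vehicle, beside 9.6% of all genes lower and 7.88% higher. Against Anakinra alone, the combination lowered Cxcl10, Cxcl16 and Cxcr4 and raised Cxcl12 and Cx3cl1 (8.1% of all genes lower, 4.67% higher). Against PLX3397 alone it changed no member at the adjusted threshold, at which 0.145% of all genes were lower and 0.00579% higher. At an unadjusted p of 0.05 in limma, 3 members passed (Cxcl10, Cxcr4 and Cx3cl1), as did 6.71% of all genes. The 3 drug groups were compared with the same 5 vehicle mice, so these results are not independent of each other.

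**Figure D1:**
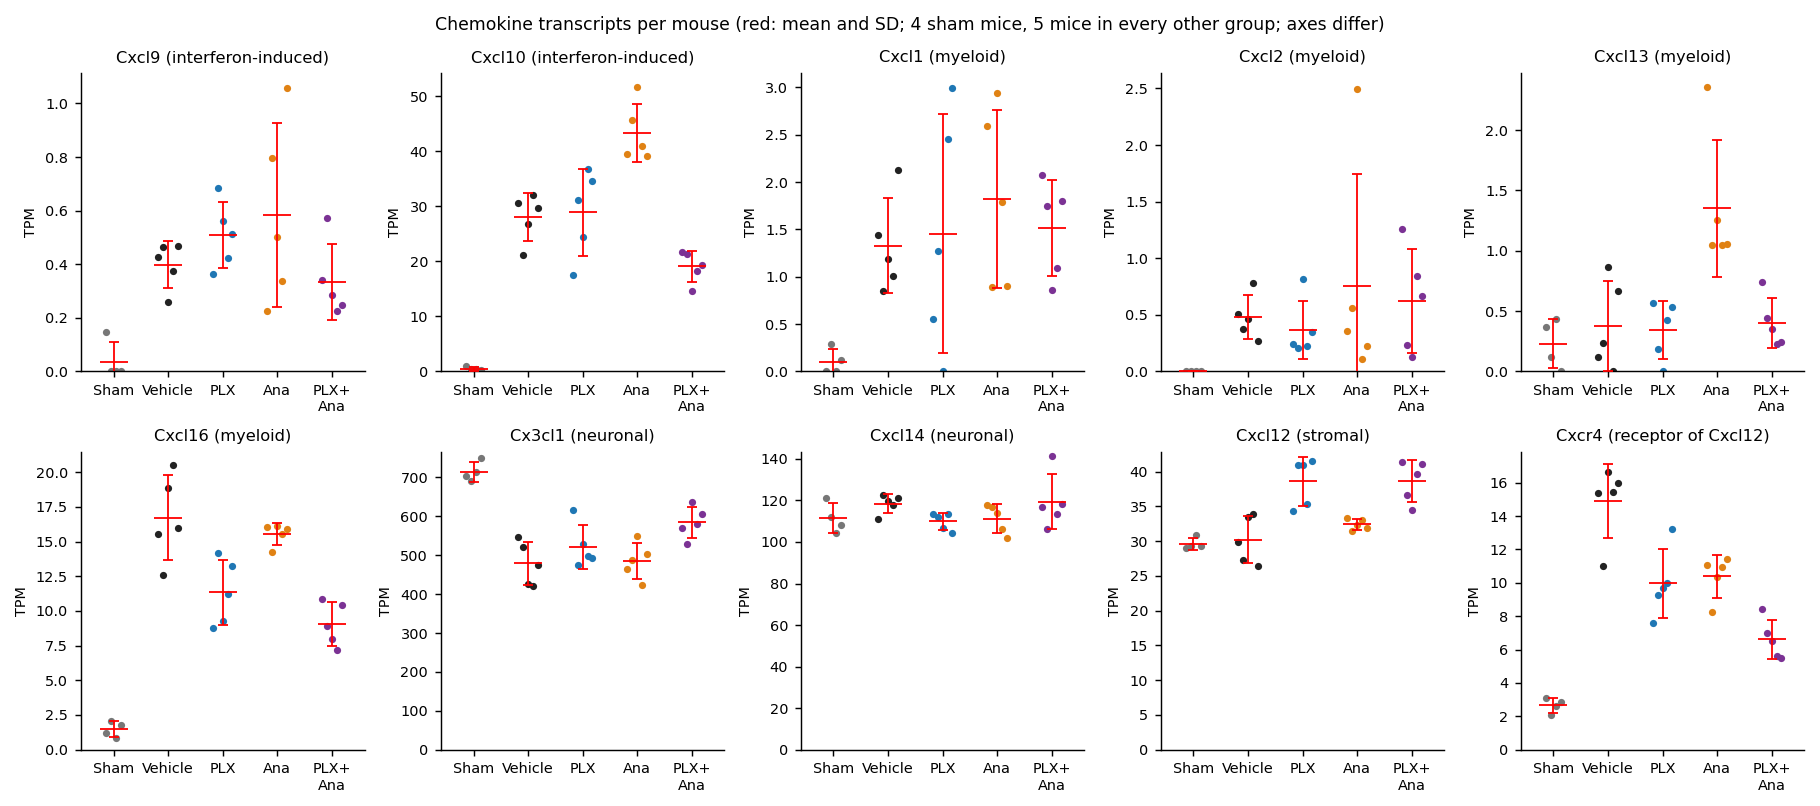
TPM of the 10 members in each of the 24 mice, by group, with the group mean and SD in red; PLX and Ana stand for PLX3397 and Anakinra, and axes start at 0 (bars that reach below it are cut) and differ between panels. Cxcl10 lay between 0.200 and 1.03 TPM in sham mice and between 39.2 and 51.6 TPM in Anakinra mice, whereas Cxcl14 stayed between 102 and 142 TPM in all mice.

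Cxcl10 was the member that injury raised most. It measured 0.200, 0.370, 0.455 and 1.03 TPM in the sham mice and 21.1, 26.8, 29.8, 30.6 and 32.1 TPM in the vehicle mice, a 54.6-fold difference of means (log2 fold change 4.28, SE 0.17, adjusted p = 4.49e-16). With PLX3397 the values were 17.5, 24.4, 31.1, 34.6 and 36.8 TPM, around the vehicle level (log2 fold change 0.01, 95% interval -0.33 to 0.34, adjusted p = 0.986). With Anakinra they were 39.2, 39.5, 40.9, 45.6 and 51.6 TPM. All Anakinra mice lay above all vehicle mice and above all PLX3397 mice. The difference from vehicle was 54.3% (log2 fold change 0.61, SE 0.16) with p = 0.00794 in the exact two-sided permutation test, the smallest that 5 against 5 mice can give, but it did not pass correction over all genes (adjusted p = 0.11).

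The combination moved Cxcl10 the other way. Its mice had 14.6, 18.2, 19.4, 21.3 and 21.8 TPM, and 3 of these lay below the lowest vehicle value. Cxcl10 fell by 32.1% against vehicle (log2 fold change -0.53, SE 0.16, adjusted p = 0.0242) and fell by 56.0% against Anakinra alone, without overlap (log2 fold change -1.15, SE 0.16, adjusted p = 1.23e-05). Against PLX3397 alone the log2 fold change was -0.54 (95% interval -0.88 to -0.20, adjusted p = 0.289). The contrast of the Anakinra effect with and without PLX3397, the interaction, was -1.16 on the log2 scale (SE 0.23, unadjusted p = 3.94e-05), and its adjusted p was 0.153. No gene passed the adjusted threshold for the interaction (0% of all tested genes), while 1395 genes had an unadjusted p under 0.05. The fall against vehicle lost its call with a pseudocount of 0.1 in place of 1 (adjusted p = 0.108) and without vehicle mouse J19B or J20B or combination mouse J09 (adjusted p = 0.0691, 0.054 and 0.0811). Without PLX3397 mouse J01, which had the lowest Cxcl10 of its group, the interaction of -1.32 and the log2 fold change of -0.70 against PLX3397 passed (adjusted p = 0.0148 and 0.0269).

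Cxcl9, the neighbour of Cxcl10 on the chromosome, was scarce in comparison. It was listed at 0 in 3 of 4 sham mice and at 0.147 TPM in the other, and at 0.260, 0.374, 0.426, 0.466 and 0.467 TPM in vehicle mice. All 20 TBI mice lay above all sham mice. In a fit without the minimum level, over 28322 genes, the difference between vehicle and sham passed (log2 fold change 0.43, SE 0.11, adjusted p = 0.00378), as did 16.8% of all genes in this direction. Group means were 0.510 ± 0.123 TPM with PLX3397, 0.583 ± 0.342 TPM with Anakinra and 0.334 ± 0.141 TPM with the combination (SD, n = 5 per group). None of these drug groups differed from vehicle at the adjusted threshold in that fit (adjusted p = 0.665 to 0.783). A share of Cxcl9 this small rests on few reads, and the number of reads per library is not in the tables.

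Genes of the interferon pathway were read beside Cxcl10. All 10 tested genes of that list were higher in vehicle mice than in sham mice. Anakinra alone called none of them, with a median log2 fold change of 0.35 against -0.02 over all tested genes, and PLX3397 alone called none (median -0.10). The combination lowered 9 of 10 against vehicle (median -0.43) and 10 of 10 against Anakinra (median -0.79). Irf7, a transcription factor of the type I interferon response, averaged 23.6 TPM in vehicle mice, 35.6 TPM with Anakinra and 13.8 TPM with the combination (adjusted p = 0.00123 against vehicle and 6.02e-07 against Anakinra). Isg15, a ubiquitin-like protein induced by interferon, averaged 43.5, 62.9 and 24.4 TPM in the same groups. Transcripts of the ligands read here, Ifng and Ifnb1, were close to absent, averaging at most 0.0454 TPM and 0.0709 TPM in any group.

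**Figure D2:**
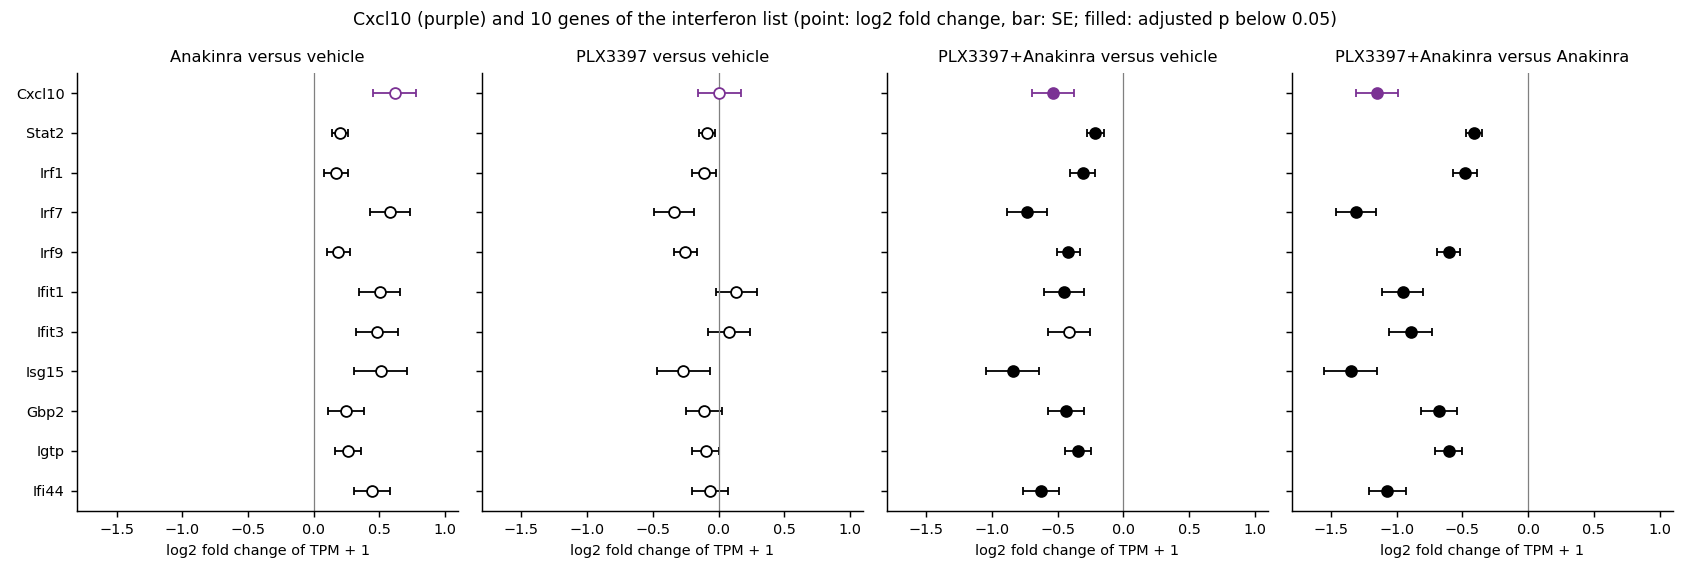
Log2 fold changes of TPM + 1 with their SE for Cxcl10 and 10 interferon pathway genes in 4 comparisons, filled where the adjusted p was under 0.05. No point is filled for Anakinra or PLX3397 against vehicle, whereas Cxcl10 and 9 of the 10 genes are filled for PLX3397+Anakinra against vehicle and Cxcl10 and 10 of 10 against Anakinra.

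The T cell receptor of Cxcl9 and Cxcl10, Cxcr3, stayed at group means of 0.0593 to 0.327 TPM. Of 8 lymphocyte markers only 1 reached the minimum for testing, and their sum ranged from 14.8 to 18.7 TPM in vehicle mice, 15.7 to 19.5 TPM in Anakinra mice and 15.9 to 22.7 TPM in combination mice. Microglial markers, by contrast, moved strongly with PLX3397, and 8 of 8 were lower in PLX3397 and in combination mice than in vehicle mice. Their summed level was 1197 to 1525 TPM in vehicle mice, 510 to 775 TPM with PLX3397, 1297 to 1474 TPM with Anakinra and 466 to 621 TPM with the combination. The microglial sums of PLX3397 mice and of vehicle mice did not overlap, and the part of these cells in the Cxcl10 level was not tested.

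Among the members listed as myeloid, Cxcl16 followed the drug groups most closely. It measured 0.845, 1.18, 1.79 and 2.10 TPM in sham mice and 12.6, 15.6, 16.0, 18.9 and 20.5 TPM in vehicle mice, a difference of 11.3-fold (log2 fold change 2.85, SE 0.15, adjusted p = 6.64e-14). PLX3397 mice had 8.79, 9.28, 11.2, 13.2 and 14.2 TPM, Anakinra mice 14.2, 15.5, 15.9, 16.0 and 16.1 TPM, and combination mice 7.20, 7.96, 8.90, 10.4 and 10.9 TPM. No combination value reached the lowest value of the vehicle or the Anakinra group. Cxcl16 fell by 45.7% with the combination (log2 fold change -0.81, SE 0.14, adjusted p = 0.000197) and by 32.1% with PLX3397 (log2 fold change -0.52, SE 0.14, adjusted p = 0.0184). Anakinra alone left it near vehicle (log2 fold change -0.08, 95% interval -0.37 to 0.21). The call for PLX3397 was lost with a pseudocount of 0.1 (adjusted p = 0.0506), with only the compared groups in the fit (adjusted p = 0.0509) and without vehicle mouse J18B or J19B or PLX3397 mouse J01 or J12 (adjusted p = 0.0574 to 0.0669).

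Macrophage markers fell beside Cxcl16. Of 8 such genes, 7 were lower with PLX3397 and 7 with the combination against vehicle, and 3 were lower with the combination than with PLX3397. Their sum was 3525 to 8069 TPM in vehicle mice, 2463 to 4549 TPM with PLX3397, 3534 to 5582 TPM with Anakinra and 1325 to 1955 TPM with the combination, and its part in the level of Cxcl16 was not tested. In RNA of whole tissue, fewer cells of a type and less RNA per cell cannot be told apart. The receptor of Cxcl16, Cxcr6, averaged 0.371 TPM in vehicle mice and at most 0.616 TPM in any group.

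The neutrophil-attracting members Cxcl1 and Cxcl2 did not show this pattern. Cxcl1 was listed at 0 in 2 sham mice and at 0.115 and 0.284 TPM in the others, and it rose to 0.850, 1.01, 1.19, 1.44 and 2.13 TPM in vehicle mice (log2 fold change 1.06, SE 0.30, adjusted p = 0.00383). PLX3397 mice spread from 0 to 3.00 TPM around a mean of 1.46 TPM, Anakinra mice from 0.893 to 2.94 TPM and combination mice from 0.863 to 2.07 TPM. The 95% intervals of the log2 fold change against vehicle were wide, from -0.65 to 0.51 for PLX3397, from -0.34 to 0.81 for Anakinra and from -0.46 to 0.69 for the combination. Cxcl2 was listed at 0 in all 4 sham mice and above 0 in all 20 TBI mice, at 0.269, 0.375, 0.466, 0.508 and 0.780 TPM with vehicle. In the fit without the minimum level its difference between vehicle and sham had an adjusted p of 0.0837. Cxcl2 means with the drugs were 0.367 ± 0.255 TPM for PLX3397, 0.752 ± 0.990 TPM for Anakinra and 0.625 ± 0.460 TPM for the combination (SD, n = 5 per group). Cxcl1 and Cxcl2 are related in sequence, and how reads shared between related genes were assigned is not given in the sources used here. Their receptor Cxcr2 averaged 0.00880 TPM in sham mice, 0.401 TPM in vehicle mice and 0.261 to 0.590 TPM in the drug groups. The sum of 8 neutrophil markers overlapped between the vehicle group (3.68 to 34.5 TPM) and each drug group (9.98 to 46.8 TPM over all 15 mice).

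Cxcl13 stood apart in the Anakinra group. It was listed at 0 to 0.431 TPM in sham mice, at 0, 0.118, 0.233, 0.667 and 0.868 TPM in vehicle mice, at 0 to 0.571 TPM in PLX3397 mice and at 0.225 to 0.744 TPM in combination mice. Anakinra mice had 1.05, 1.05, 1.06, 1.25 and 2.35 TPM, above all mice of the other groups. Without Anakinra mouse J05, which had the highest value, the mean of Cxcl13 over the other mice was 0.476 TPM and under the minimum for testing. Because the Anakinra mice decided that Cxcl13 was tested, its comparisons with them are given from the fit without the minimum level. There the log2 fold change against vehicle was 0.79 (SE 0.17, adjusted p = 0.121), and 0.00353% of all 28322 genes were higher. The combination differed from Anakinra alone by -0.73 on the log2 scale (SE 0.17, adjusted p = 0.0102), where 4.62% of all genes were lower. With the minimum level, a pseudocount of 0.1 left this difference uncalled (adjusted p = 0.0798), and the difference from vehicle was called only without vehicle mouse J18B (0.91, adjusted p = 0.0299). Injury itself left Cxcl13 near sham (log2 fold change 0.14, 95% interval -0.25 to 0.52). The B cell receptor of Cxcl13, Cxcr5, averaged at most 0.0985 TPM in any group.

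With PLX3397 and with the combination, the stromal ligand Cxcl12 rose while its receptor Cxcr4 fell. Cxcl12 was near the sham level in vehicle mice (29.0, 29.3, 29.3 and 30.9 TPM in sham mice, 26.4, 27.3, 29.9, 33.4 and 33.9 TPM in vehicle mice, log2 fold change 0.02, 95% interval -0.13 to 0.17). With PLX3397 it was 34.3, 35.3, 40.9, 41.0 and 41.5 TPM, and with the combination 34.5, 36.6, 39.6, 41.1 and 41.4 TPM. Each of these 10 values exceeded all vehicle, sham and Anakinra values. The rise was 27.8% for PLX3397 (log2 fold change 0.35, SE 0.07, adjusted p = 0.00089) and 27.9% for the combination (log2 fold change 0.35, SE 0.07, adjusted p = 0.000507), and the difference between these groups was 0.00 on the log2 scale (95% interval -0.13 to 0.14). Anakinra mice lay in a narrow range of 31.5 to 33.4 TPM, 0.11 above vehicle on the log2 scale (95% interval -0.03 to 0.24). The combination was higher than Anakinra alone (log2 fold change 0.24, adjusted p = 0.016), a call lost without combination mouse J17 (adjusted p = 0.052).

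Cxcr4 was raised 5.62-fold by injury, from 2.05, 2.64, 2.85 and 3.07 TPM in sham mice to 11.0, 15.4, 15.4, 16.0 and 16.6 TPM in vehicle mice (log2 fold change 2.12, SE 0.13, adjusted p = 1.82e-12). It was 7.59, 9.28, 9.70, 9.99 and 13.2 TPM with PLX3397, 8.22, 10.3, 10.9, 11.0 and 11.4 TPM with Anakinra and 5.49, 5.63, 6.53, 6.98 and 8.40 TPM with the combination. All combination mice lay below all vehicle mice and above all sham mice. Cxcr4 fell by 55.6% with the combination (log2 fold change -1.06, SE 0.13, adjusted p = 7.77e-07) and by 33.1% with PLX3397 (log2 fold change -0.54, SE 0.13, adjusted p = 0.00582). With Anakinra the log2 fold change was -0.48 (SE 0.13, exact permutation p = 0.0238), which did not pass correction over all genes (adjusted p = 0.11). The interaction was -0.04 (95% interval -0.41 to 0.33), so that the log2 change with the combination was close to the sum of those with the single drugs. The combination was lower than Anakinra (log2 fold change -0.59, adjusted p = 0.00218). Its log2 fold change of -0.52 against PLX3397 (adjusted p = 0.122) passed without vehicle mouse J17B, PLX3397 mouse J01 or combination mouse J03 (adjusted p = 0.0464, 0.0311 and 0.0428).

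Of 8 fibroblast and mural cell markers, 4 were higher and 1 was lower with PLX3397 than with vehicle, and 3 were higher and 1 lower with the combination. Col1a1, a chain of fibrillar collagen, averaged 122 TPM in vehicle mice, 250.1 TPM with PLX3397, 334 TPM with Anakinra (adjusted p = 0.0968) and 271 TPM with the combination. The summed level of the list was 210.0 to 703 TPM in vehicle mice, 495 to 1061 TPM with PLX3397, 730 to 1382 TPM with Anakinra and 672 to 1046 TPM with the combination. These ranges overlapped between the drug groups. None of 8 endothelial markers was called in any drug group against vehicle or in the combination against a single drug. The atypical receptor Ackr3, which binds and removes Cxcl12, averaged 12.3 to 12.8 TPM in the 4 TBI groups. It was called in none of these comparisons either. The part of these cells in the level of Cxcl12 was not tested.

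Cx3cl1 was by far the most abundant member and the only tested member that was lower after injury. Sham mice had 692, 703, 714 and 750.1 TPM, and vehicle mice had 421, 427, 476, 522 and 548 TPM, a fall of 33.0% without overlap (log2 fold change -0.58, SE 0.08, adjusted p = 1.42e-06). PLX3397 mice had 474, 493, 497, 529 and 616 TPM, Anakinra mice 424, 463, 488, 502 and 549 TPM, and combination mice 529, 569, 581, 606 and 637 TPM. All drug-treated mice stayed below all sham mice. The combination raised Cx3cl1 by 22.1% against vehicle (log2 fold change 0.29, SE 0.08, adjusted p = 0.00935) and by 20.5% against Anakinra (log2 fold change 0.27, adjusted p = 0.0206). For PLX3397 alone the log2 fold change was 0.13 (95% interval -0.03 to 0.28, adjusted p = 0.356) and for Anakinra alone 0.02 (95% interval -0.14 to 0.18). The call against Anakinra was lost without Anakinra mouse J05 or J21 or combination mouse J09 or J17 (adjusted p = 0.0551 to 0.0785).

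Neuronal markers were read beside Cx3cl1. All 8 were lower in vehicle mice than in sham mice, 5 of 8 were higher with the combination than with vehicle and 4 of 8 with PLX3397. Their sum was 6873 to 7216 TPM in sham mice, 4188 to 5053 TPM in vehicle mice, 4799 to 5669 TPM with PLX3397, 4394 to 4861 TPM with Anakinra and 5126 to 5448 TPM with the combination, and its part in the level of Cx3cl1 was not tested. The receptor Cx3cr1, a marker of microglia, averaged 35.0 TPM in sham mice, 135 TPM in vehicle mice, 52.4 TPM with PLX3397, 127 TPM with Anakinra and 49.1 TPM with the combination. Adam10 and Adam17, proteases that shed Cx3cl1 and Cxcl16 from the cell surface, rose after injury (log2 fold change 0.50 and 1.20) and fell with PLX3397 (-0.24 and -0.46) and with the combination (-0.28 and -0.52), all 6 of these calls having an adjusted p of at most 0.000552.

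Cxcl14 was the tested member for which no difference over the groups passed. Group means were 111 ± 7.25 TPM in sham mice (SD, n = 4), 118 ± 4.50 TPM with vehicle, 109.9 ± 4.19 TPM with PLX3397, 111 ± 6.93 TPM with Anakinra and 119 ± 13.2 TPM with the combination (SD, n = 5 per group). The F-test of limma over the 5 groups gave an adjusted p of 0.254 for Cxcl14, whereas the other tested members, leaving Cxcl13 aside, passed it, as did 51.9% of all tested genes. The interaction of 0.20 had an unadjusted p of 0.0214 and an adjusted p of 0.555. Cxcl14 is made by some interneurons, and 7 of 8 interneuron markers were lower in vehicle mice than in sham mice, where the log2 fold change of Cxcl14 was 0.09 (95% interval -0.04 to 0.22).

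**Figure D3:**
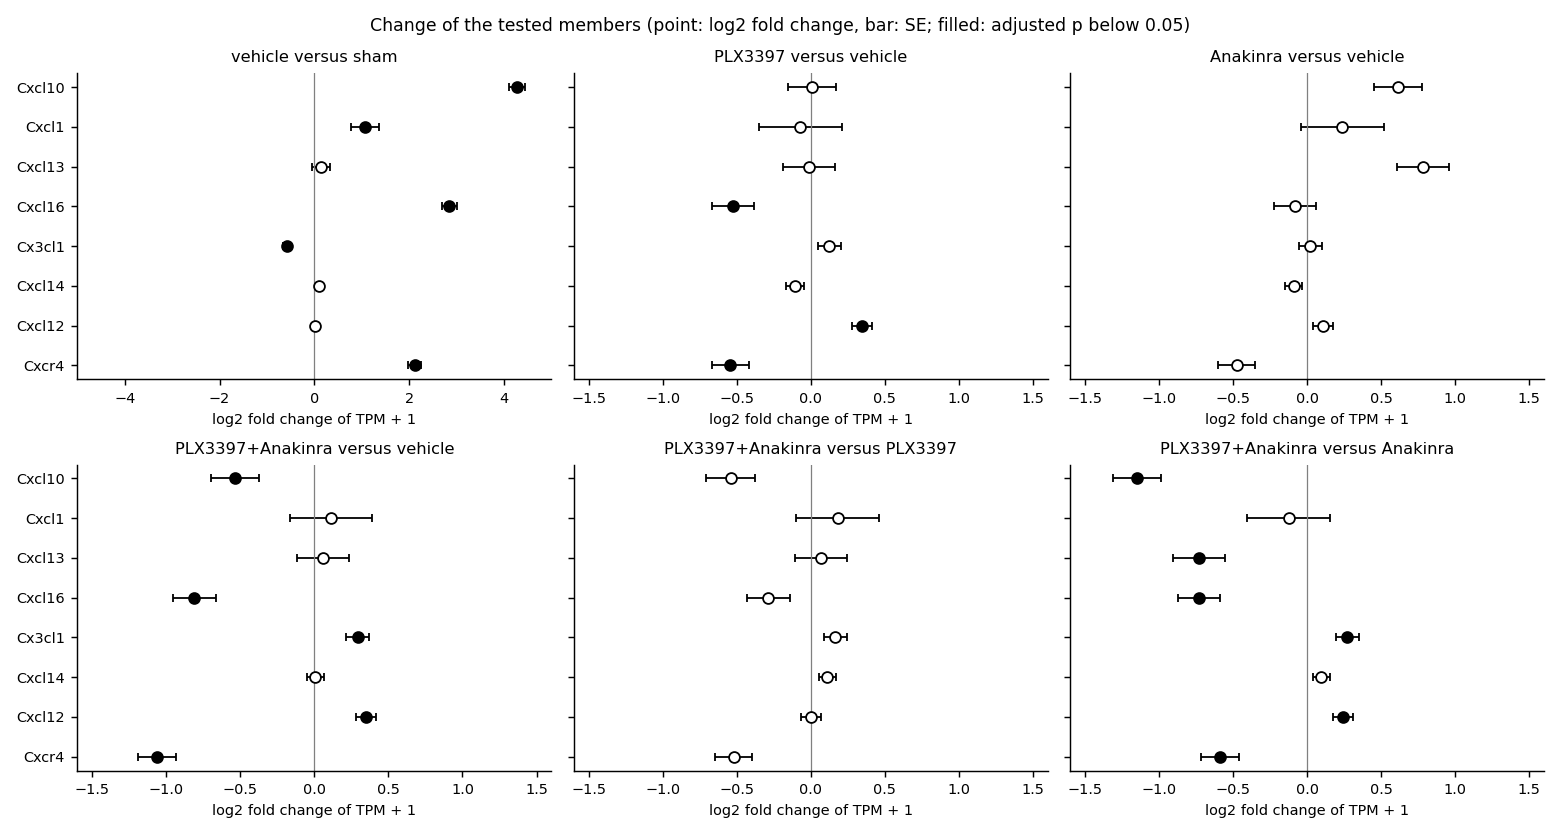
Log2 fold changes of TPM + 1 with their SE for the 8 tested members in 6 comparisons, filled where the adjusted p was under 0.05; the x axis of vehicle versus sham is wider than the others. Cxcl10, Cxcl16 and Cxcr4 lie left of 0 and Cx3cl1 and Cxcl12 right of it for PLX3397+Anakinra against vehicle and against Anakinra, and no point is filled for Anakinra against vehicle or PLX3397+Anakinra against PLX3397; Cxcl13 reached the minimum level only through the Anakinra mice.

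Levels after treatment were also set against uninjured tissue. In each of the 3 drug groups, Cxcl10, Cxcl16, Cxcr4 and Cxcl1 were higher than in sham mice and Cx3cl1 was lower. The shares of all tested genes higher and lower than sham were 22.7% and 22.5% with PLX3397, 25.1% and 29.2% with Anakinra and 20.7% and 18.1% with the combination. Cxcl12 was higher with PLX3397 and with the combination. For Cxcl13 with Anakinra, the log2 fold change against sham was 0.92 (adjusted p = 0.000321 in the fit without the minimum level, in which 15.7% of all genes were higher). Cxcl10 with the combination was still 37.1 times the sham level, Cxcl16 6.13 times and Cxcr4 2.49 times. Cx3cl1 with the combination stayed 18.2% under sham (log2 fold change -0.29, adjusted p = 0.00604).

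Ratios within a mouse contrast genes of different roles and cancel only the spread between libraries that moves both genes alike. They were taken as log2 ratios of TPM + 1 and tested by permuting the mice exactly (two-sided), with p-values adjusted over 18 tests (3 ratios in 6 comparisons). The ratio of ligand Cxcl12 to receptor Cxcr4 averaged 3.08 ± 0.19 in sham mice (SD, n = 4), 0.98 ± 0.20 with vehicle, 1.56 ± 0.15 with Anakinra, 1.87 ± 0.21 with PLX3397 and 2.39 ± 0.24 with the combination (SD, n = 5 per group). It differed in all 6 comparisons (exact permutation p = 0.00794, the smallest possible, adjusted p = 0.011), including PLX3397+Anakinra against PLX3397, where no mouse of the combination lay below 2.17 and no PLX3397 mouse above 2.04. This adjustment covers the 18 ratio tests and not all genes. Neither Cxcl12 nor Cxcr4 by itself passed correction over all genes with Anakinra against vehicle or with the combination against PLX3397. The ratio of Cx3cl1 to Cx3cr1 averaged 4.31 ± 0.05 in sham mice, 1.82 ± 0.34 with vehicle, 1.92 ± 0.17 with Anakinra, 3.30 ± 0.33 with PLX3397 and 3.56 ± 0.29 with the combination. It differed between the groups with and without PLX3397 (adjusted p = 0.011), but not detectably between Anakinra and vehicle (0.10, exact permutation p = 0.556) or between the combination and PLX3397 (0.26, exact permutation p = 0.254). The ratio of interferon-induced Cxcl10 to myeloid Cxcl16 averaged -0.71 ± 0.57 in sham mice and 0.72 ± 0.18 with vehicle. It was higher with PLX3397 (1.25 ± 0.27, adjusted p = 0.0204) and with Anakinra (1.42 ± 0.19, adjusted p = 0.011) than with vehicle. With the combination it was 1.00 ± 0.20 (adjusted p = 0.0762 against vehicle and 0.011 against Anakinra).

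**Figure D4:**
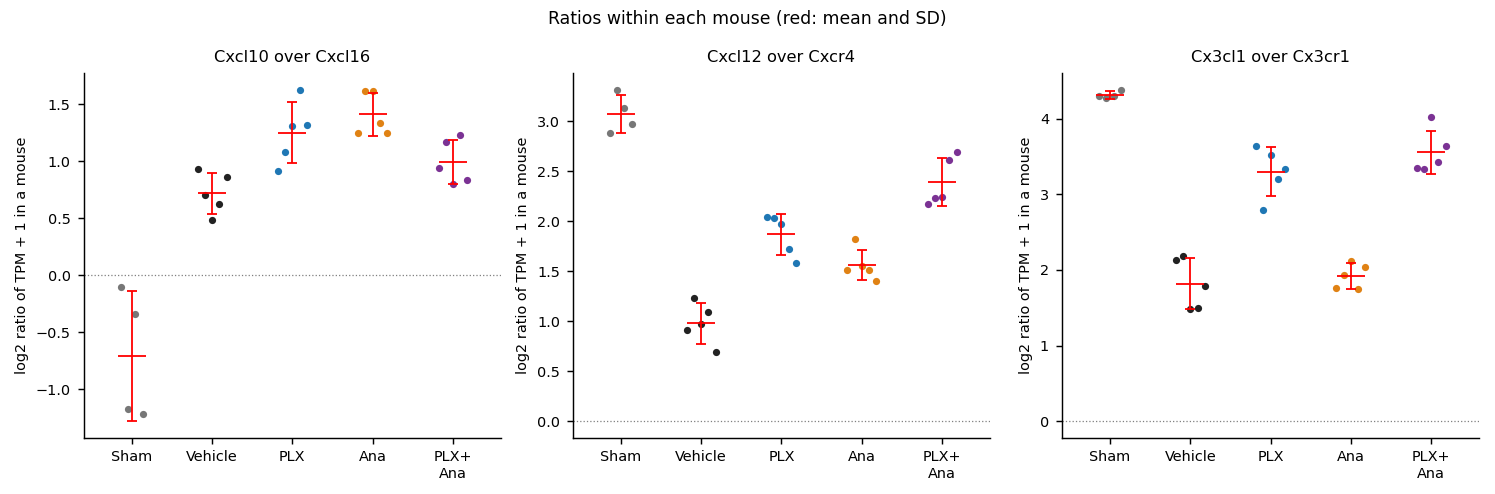
Log2 ratios of TPM + 1 within each mouse for Cxcl10 over Cxcl16, Cxcl12 over Cxcr4 and Cx3cl1 over Cx3cr1, by group, with the mean and SD in red; the dotted line marks equal levels. The 5 combination mice lie at 2.17 to 2.70 for Cxcl12 over Cxcr4, between the sham mice (2.88 to 3.31) and the vehicle mice (0.69 to 1.24).

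Variation between mice of the same group was described by correlating log2(TPM + 1) over the 20 TBI libraries after each group's mean was taken off, with no test, since the libraries share tissue composition. Cxcl10 varied most closely with Ifit3b (r = 0.897), Fcgr1 (r = 0.888) and Ifit2 (r = 0.866), of which the Ifit genes are interferon-induced and Fcgr1 encodes a Fc receptor of phagocytes. The genes nearest to Cxcl1 were Iigp1 (r = 0.867), an interferon-inducible GTPase, Oasl1 (r = 0.839) and Mnda (r = 0.836). Cxcl16 varied most closely with Fap and Ms4a6d (r = 0.878 each) and Srgn (r = 0.872), which mark activated fibroblasts, macrophages and the granules of blood cells. The nearest genes of Cxcr4 were Cpxm2 (r = 0.895), Axl (r = 0.874), a receptor tyrosine kinase of phagocytes, and Mxra8 (r = 0.869), those of Cxcl12 were Msrb3 (r = 0.848), Prrx1 and Clec4n (r = 0.846 each), and those of Cx3cl1 were Cdk5r1 (r = 0.961), the neuronal activator of Cdk5, Rab6b (r = 0.944) and Smarcd1 (r = 0.943). The nearest genes were Pex16 for Cxcl9 (r = 0.786), Ripply2 for Cxcl2 (r = 0.755), Gm5089 for Cxcl13 (r = 0.786) and 4930426D05Rik for Cxcl14 (r = 0.851). Among the members, Cxcl10 and Cxcl1 (r = 0.663), Cxcl10 and Cxcl16 (r = 0.662), Cxcl16 and Cxcl12 (r = 0.662) and Cxcl16 and Cxcr4 (r = 0.62) varied together within groups, whereas Cxcl16 and Cx3cl1 varied in opposite directions (r = -0.589). For the neighbours Cxcl9 and Cxcl10 r was 0.165.

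The remaining CXC ligands, receptors and processing enzymes were read for the same comparisons. Of 6 further ligands in the table, 3 were tested, and all 3 (Pf4, Cxcl5 and Ppbp) were higher in vehicle mice than in sham mice. Pf4, a ligand of platelets that macrophages also make, averaged 3.66 TPM in sham mice, 63.1 TPM with vehicle, 30.6 TPM with PLX3397, 47.3 TPM with Anakinra and 7.55 TPM with the combination. It fell with PLX3397 against vehicle (log2 fold change -1.0, adjusted p = 0.00406) and with the combination against vehicle (-2.88, adjusted p = 8.74e-10), and it was lower with the combination than with PLX3397 (-1.88, adjusted p = 5.68e-05). Cxcl5, which attracts neutrophils through Cxcr2 like Cxcl1, rose from 1.01 TPM in sham mice to 18.2 TPM with vehicle. It averaged 18.6, 14.5 and 14.8 TPM with PLX3397, Anakinra and the combination. It had no call in any drug group against vehicle or in the combination against a single drug. Cxcl3, the relative of Cxcl1 and Cxcl2, stayed under the minimum for testing, with means of 0.510 ± 0.249 TPM for vehicle, 0.0964 ± 0.0545 TPM for PLX3397, 0.788 ± 0.618 TPM for Anakinra and 0.0513 ± 0.115 TPM for the combination (SD, n = 5 per group). Unlike Cxcl1 and Cxcl2, it was lower with PLX3397 (at most 0.130 TPM) and with the combination (at most 0.256 TPM) than in any vehicle mouse (at least 0.356 TPM). Levels this low rest on few reads. Of 8 further receptors 3 were tested. Only Cx3cr1 was called in a drug group against vehicle or in the combination against a single drug. Of 10 genes of the interleukin-1 and NF-κB pathway, 8 were higher and 1 lower after injury. Anakinra alone called none of these 10, while 3 fell and 1 rose with PLX3397 and 5 fell and 1 rose with the combination against vehicle. Il1a fell with PLX3397 (log2 fold change -0.42, adjusted p = 0.00718) and with the combination (-0.62, adjusted p = 6.72e-05), whereas the log2 fold change of Il1b was 0.29 and 0.03 in these comparisons (adjusted p = 0.174 and 0.909).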

How the data were processed

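The authors sequenced poly(A)-selected RNA in paired-end mode, mapped the reads to mouse genome mm10 (GRCm38) in CLC Genomics Workbench and deposited TPM per gene. The methods say that CLC calls this unit CPM, but only 21.2 to 25.5% of low values were whole multiples (within 1%) of a library's smallest value, so lengths enter the values. Read counts are not in the tables. Depth is therefore unknown, no counting intervals are given, and precision rests on the spread between mice. A rounded copy of the table and a filtered subset with the authors' p and F values were not used.

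Groups follow the treatment given in the labels, and every mouse was used. Genes averaging 0.5 TPM or more were fitted as log2(TPM + 1) in limma 3.58.1 (R 4.3.3) with 1 mean per group, all 24 libraries and a variance trend. All limma tests were two-sided, and p-values were Benjamini-Hochberg adjusted over 17267 genes. A fold change on this scale understates the change of low genes. Single values were also tested by permuting mice exactly (two-sided). The text names the members, genes of hand-written lists, and the 3 genes closest to each member by within-group correlation. Members and lists were chosen with earlier results of these data known. From the interferon list, 1 gene is not reported here and was left out of its counts. The alternatives were another pseudocount, other filters, rescaling, only the compared groups, no trend, the limits of the study, exact tests, a block for animal numbers and leaving out each mouse. Calls were tested on simulated data. Promoters came from RefSeq (GRCm38.p6), with an entry for 9 of 10 members.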

Additional observations from a re-analysis of the deposited data

Results flagged for a closer look

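Within a group, 5 of 49 combinations of a member and a group held a mouse whose gap to its neighbour was large for the range of the group by Dixon's test, and chance alone gives about 1 in 20. The highest Cxcl9 level of the sham group, 0.147 TPM in mouse J07, stood above the 0 TPM listed for the other sham mice. With the others at 0, any level above 0 is flagged, so the rate of 1 in 20 does not apply to it. Cxcl2 was highest at 0.812 TPM in PLX3397 mouse J12 (next value 0.345 TPM) and at 2.50 TPM in Anakinra mouse J14 (next value 0.563 TPM). Cxcl13 reached 2.35 TPM in Anakinra mouse J05, with 1.25 TPM as the next value. Cxcr4 was lowest at 11.0 TPM in vehicle mouse J17B, whose next neighbour had 15.4 TPM.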

How the results depend on the processing

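No called value changed direction, but values without a call did (adjusted p of at least 0.508). A pseudocount of 0.1 gave 0.053 for Cxcl13 with PLX3397 against vehicle and 0.38 for the Cxcl1 interaction. Rescaling gave -0.0035 for Cxcl14 with the combination against vehicle, -0.0025 for Cxcl12 with the combination against PLX3397 and 0.035 for Cxcl14 with Anakinra against sham. With the replicate block, PLX3397 against vehicle was -0.010 for Cxcl10 and 0.030 for Cxcl13. Leaving out 1 mouse at a time moved 15 of 118 values across 0. For PLX3397 against vehicle the log2 fold changes spanned -0.29 to 0.21 for Cxcl1, -0.090 to 0.17 for Cxcl10 and -0.12 to 0.11 for Cxcl13. For the combination they spanned -0.050 to 0.18 (Cxcl13) and -0.056 to 0.045 (Cxcl14) against vehicle, -0.10 to 0.40 (Cxcl1), -0.038 to 0.041 (Cxcl12) and -0.032 to 0.13 (Cxcl13) against PLX3397, and -0.25 to 0.012 (Cxcl1) against Anakinra. The others were Cx3cl1 with Anakinra against vehicle (-0.023 to 0.073), Cxcl12 with vehicle against sham (-0.022 to 0.065), Cxcl14 against sham with PLX3397 (-0.049 to 0.023) and Anakinra (-0.032 to 0.040), and the interactions of Cxcl1 (-0.34 to 0.16) and Cxcr4 (-0.13 to 0.055). With the limits of the study (unadjusted p, a ratio of means above 2 and a difference above 4 TPM), 3 members were higher after injury (without Cxcl1; 882 of all genes) and 0 lower (27 of all genes). With PLX3397, 0 were higher (15 of all genes) and 0 lower (161). With the combination, 0 were higher (17) and 1 (Cxcr4) lower (268) against vehicle, and 0 higher (3) and 1 (Cxcl10) lower (268) against Anakinra. Against sham, these limits left 3 members higher with PLX3397 (618 of all genes), 3 with Anakinra (905) and 2 with the combination (490), and 0 lower in each (14, 9 and 10). Leaving Cxcl13 aside, the exact permutation test at an unadjusted p under 0.05 called Cxcl10 higher with Anakinra against vehicle (4.75% of all genes). It called 1 member lower in that comparison (6.53%) and 2 lower with the combination against PLX3397 (3.15%). A pseudocount of 0.1, or only the compared groups, left 1 member lower with PLX3397 (without Cxcl16). With only the compared groups, Cxcl12 was called higher with Anakinra than in sham mice. A minimum mean of 5 TPM, which removes Cxcl1 and Cxcl13 from the test, left 3 members higher with Anakinra against sham. Leaving out 1 mouse at a time gave 1 to 2 members lower with PLX3397, 0 to 1 higher with Anakinra (only Cxcl13, which these mice brought into the test), 2 to 3 lower with the combination against vehicle, 0 to 2 lower with the combination against PLX3397, 0 to 2 higher with the combination against Anakinra, and 0 to 1 for the interaction. In all, 13 of 118 values changed their call without some mouse. Testing without a minimum level, rescaling and no trend changed no call of the 8 tested members. Whether the animal numbers shared by vehicle and drug-treated mice pair them is not known, and 4 pairs are too few to decide it (r of deviations -0.134 to 0.318). The replicate block for these numbers had a consensus correlation of 0.247. With this block the calls against vehicle stayed at 1 higher and 2 lower with PLX3397 and 2 higher and 3 lower with the combination. Without read counts, the counting error of Cxcl2, Cxcl9, Cxcl13 and Cxcl1, at around 1 TPM or less, cannot be given.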
